A study of Mus musculus with 8 samples.

Results

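The genes described here are 40 members of the lysosomal degradation machinery of mouse myeloid cells, of 15377 genes listed in the deposited tables. They were chosen by name and not by a rule on their values, but with earlier results of these data known. All 40 were found in both tables. They comprise 10 cathepsins, 12 other acid hydrolases and 3 further soluble proteins (Psap, Grn and Npc2), below called soluble cofactors. Npc2 hands on cholesterol and is grouped there without being a cofactor of an enzyme. The rest are 6 lysosomal membrane proteins, 3 transcription factors and 6 genes of the vacuolar proton pump (V-ATPase). All 40 also passed the filter on low counts in each comparison.

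RNA was sequenced from 8 bone marrow cultures of C57BL/6 mice, in 4 groups of 2 libraries. Marrow from Lyz2-Cre;Trpv2fl/fl mice (knockout, KO) or from Trpv2fl/fl mice (control) was grown into bone marrow-derived macrophages (BMDM) by 7 days in M-CSF (10 ng/mL). Marrow of the same genotypes was grown into bone marrow-derived dendritic cells (BMDC) by 7 days in GM-CSF (20 ng/mL). The controls carry the loxP-flanked Trpv2 alleles too, but no Cre. Trpv2 encodes a calcium-permeable cation channel, and Cre is driven by the promoter of Lyz2, the gene of lysozyme M, which is active in myeloid cells. Cre and the loss of Trpv2 occurred together in every knockout library, so their effects cannot be told apart. Whether 1 mouse gave a culture of each kind is not stated in the labels. Cell type and growth factor were changed together, and each cell type has a deposited table of its own, so these cannot be told apart either. The spread between libraries may in part be technical, and the p-values measure only that spread.

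Lysosomes are acid organelles in which hydrolases break down proteins, glycans, lipids and nucleic acids taken up by endocytosis, phagocytosis or autophagy. Cathepsins are their proteases, and the V-ATPase pumps protons into the lumen so that the enzymes can work at low pH. In macrophages and dendritic cells the same enzymes digest engulfed material and prepare antigens for MHC class II. The transcription factors TFEB, TFE3 and MITF enter the nucleus when lysosomes are stressed or nutrients are short, and bind a CACGTG core, within a motif called the CLEAR element, in the promoters of many lysosomal genes.

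The promoters show which members carry these letters close to their start. Promoter sequences from RefSeq (GRCm38.p6), running from 250 bases before to 50 bases after the annotated start, were matched by symbol to 32 of the 40 members. The 8-base palindrome TCACGTGA was present in 5 of the 32 (15.6%) and in 304 of 27025 genes of the whole promoter table (1.12%). The 6-base core CACGTG, which lies within the longer motif, was present in 10 of the 32 (31.2%) and in 8.09% of all genes. Both are palindromes, so a search of either strand gives the same matches, and a gene was counted when any of its promoters held the letters. Among 79 other lysosomal genes with a promoter in the table, 12.7% held the 8-base form and 27.8% the core. The windows with the 8-base form, in capitals, are shown 5′ to 3′ on the strand of the gene for a subunit of the proton pump's membrane sector (Atp6v0d1), its catalytic subunit (Atp6v1a), protective protein cathepsin A (Ctsa), the aspartic protease cathepsin D (Ctsd) and alpha-galactosidase A (Gla).
Atp6v0d1: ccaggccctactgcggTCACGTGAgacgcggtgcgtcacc
Atp6v1a: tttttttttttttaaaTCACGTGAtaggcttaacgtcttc
Ctsa: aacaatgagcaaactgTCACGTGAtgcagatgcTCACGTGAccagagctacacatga
Ctsd: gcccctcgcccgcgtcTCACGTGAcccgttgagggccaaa
Gla: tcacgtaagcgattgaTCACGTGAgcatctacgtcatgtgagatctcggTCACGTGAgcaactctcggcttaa
These windows lie, in GRCm38.p6, at chr8:105566045-105566084 on the minus strand for Atp6v0d1, chr16:44139368-44139407 on the minus strand for Atp6v1a, chr2:164833744-164833800 on the plus strand for Ctsa, chr7:142387903-142387942 on the minus strand for Ctsd and chrX:134601177-134601249 on the minus strand for Gla. Ctsa and Gla each hold the palindrome at 2 places. Lamp1, the gene of an abundant glycoprotein of the lysosomal membrane, is shown because its promoter holds the core (capitals) at 4 places within 84 bases, at chr8:13159084-13159167 on the plus strand.
Lamp1: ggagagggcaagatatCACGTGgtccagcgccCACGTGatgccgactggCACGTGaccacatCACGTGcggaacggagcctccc
The core without the longer form was also found in Ctsl, Glb1, Lgmn and Naglu, and in a second window of Ctsd. A match of letters is a description of the sequence, and binding at these places was not measured.

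The libraries held 15790185 to 19463457 counts. Trpv2 stood at 26.4 and 29.2 CPM (counts relative to the library total, with TMM scaling over all 8 libraries) in BMDM knockouts, against 273 and 277 CPM in BMDM controls. In BMDC knockouts it stood at 35.5 and 56.3 CPM, against 181 and 240 CPM in BMDC controls. Lyz2 was also low in every knockout library, with 103 to 274 CPM in all 4 of them and 17450 to 63580 CPM in the 4 controls, so lysozyme M RNA was lost together with Trpv2. BMDC knockout 2 differed from the rest of its table: over genes, its Spearman correlation with each other BMDC library was 0.8802 to 0.8965, while other pairs of BMDC libraries reached 0.9841. Its deviations from the controls also followed gene length, with a median of 0.31 (log2) over the shortest of 5 length classes of genes and -0.99 over the longest. Each BMDC result is therefore also given without that library. For the marker genes and their sums, here and below, CPM is relative to the library total without TMM scaling. The 14 macrophage markers summed to 13890 to 14190 CPM in BMDM knockouts and 13330 to 13860 CPM in BMDM controls. In the BMDC they summed to 6438 to 7197 CPM in knockouts and 5568 to 7641 CPM in controls. The 15 dendritic cell markers summed to 148 to 173 CPM in the BMDM, and to 504 to 648 CPM in BMDC knockouts and 305 to 346 CPM in BMDC controls. The defining dendritic cell genes Flt3 and Zbtb46 were each below 1 CPM in all 4 BMDC libraries, whereas the macrophage gene Adgre1 stood at 1095 to 1995 CPM there. Adgre1 was higher still in the BMDM, at 3888 to 4275 CPM. The macrophage gene C1qa had 3.023 to 29.74 CPM in the BMDC, against 116.3 to 153.3 CPM in the BMDM. The dendritic cell marker Cd86 had 49.97 to 97.11 CPM in the BMDC, against 5.169 to 6.287 CPM in the BMDM. Itgax was also higher in the BMDC, at 68.35 to 164.1 against 30.76 to 55.28 CPM, while Batf3 overlapped. In bulk RNA, fewer cells of a type and less RNA per cell cannot be told apart.

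Some lysosomal genes were among the most abundant transcripts of both cultures. The 40 members took 7.08% and 7.07% of all counts in BMDM knockouts and 6.22% and 6.69% in BMDM controls. Lyz2 alone took 0.025% and 0.027% of counts in BMDM knockouts, and 5.78% and 5.35% in BMDM controls. It is part of the total to which these shares, and the FPKM below, are scaled. How far it moved them was not tested. In the BMDC they took 6.31% and 8.72% in knockouts, where the higher value is knockout 2, and 6.38% and 7.28% in controls. Per length, in the deposited FPKM (fragments scaled to gene length and library total), the order of levels was led by the same few genes in both cell types. Psap, the precursor of the saposins that help hydrolases act on sphingolipids, was the highest member in all groups. It stood at 4997 and 4819 FPKM in BMDM knockouts and 3916 and 4943 FPKM in BMDM controls, and at 7741 and 7791 FPKM in BMDC knockouts and 7760 and 10740 FPKM in BMDC controls. By the mean of controls it ranked 6 among all listed genes in the BMDM and 3 in the BMDC. Ctss, the cysteine protease cathepsin S that trims the invariant chain of MHC class II, was the second member in every group, at 3663 and 3697 FPKM in BMDM controls and 3008 and 2853 FPKM in BMDC controls. The ranks next to it were held by cathepsins B and D (Ctsb, Ctsd), the exopeptidase cathepsin Z (Ctsz) and the membrane glycoprotein Cd68, in an order that differed between groups. In BMDM controls Ctsb had 2426 and 2635 FPKM, Ctsd 2582 and 2419 FPKM and Ctsz 2490 and 2055 FPKM, so these neighbours overlapped, and Cd68 stood below them at 1208 and 1163 FPKM. At the low end stood the aspartic protease gene Ctse, at 0.158 to 0.972 FPKM over the 8 libraries, and the galactosylceramidase gene Galc, averaging 4.91 FPKM in BMDM controls and 4.25 FPKM in BMDC controls. The 3 transcription factor genes were also low: in controls Tfeb averaged 8.93 FPKM in BMDM and 6.84 FPKM in BMDC, Tfe3 22.2 and 13.1 FPKM, and Mitf 9.65 and 9.96 FPKM.

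**Figure D1:**
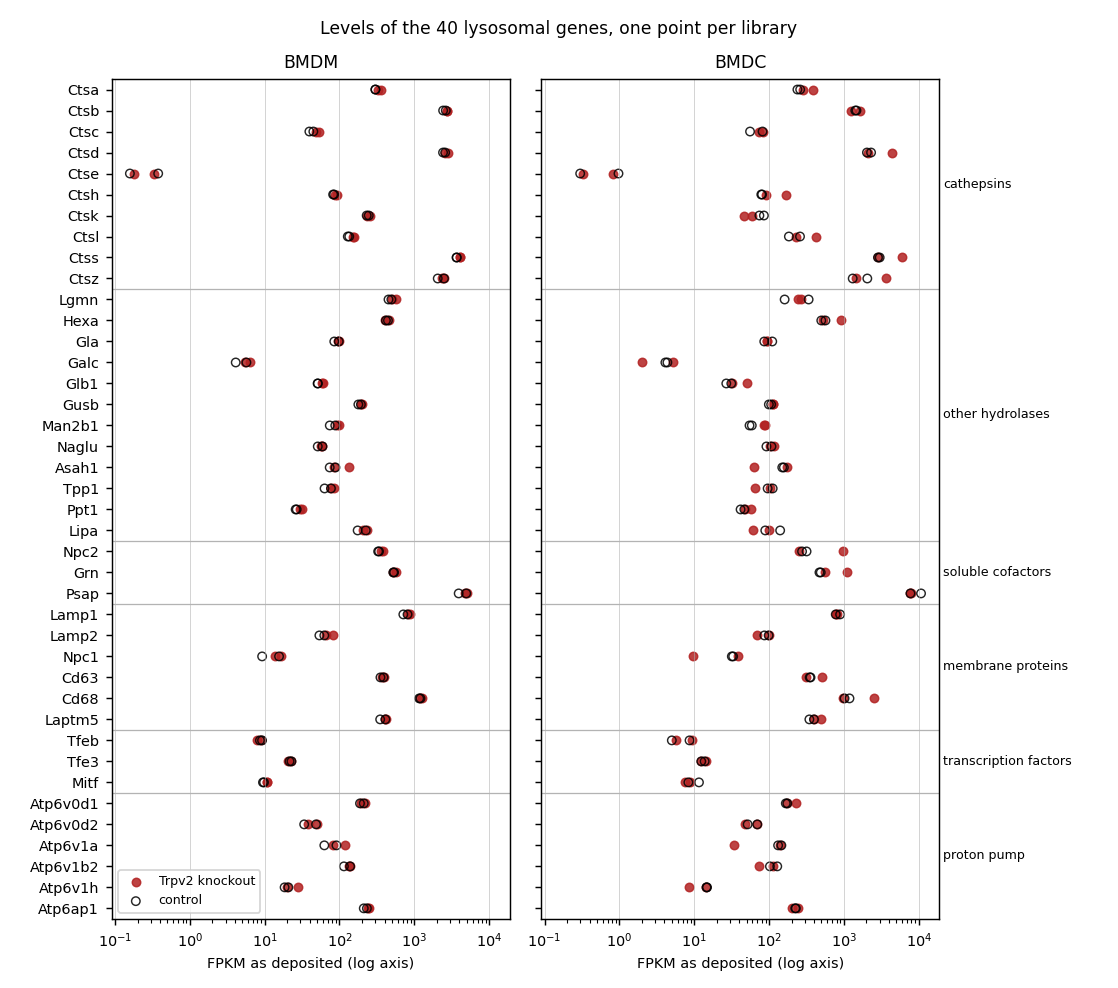
Deposited FPKM of the 40 genes (log axis) in BMDM (left) and BMDC (right), 1 point per library, filled for knockouts and open for controls, ordered by role. Psap is the highest member in both panels and Ctse the lowest, and in BMDC 1 knockout point stands to the right of the others for cathepsins D, S and Z, Npc2, Grn and Cd68.

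In BMDM, the lysosomal genes differed little between knockout and control, and 0 of 40 passed the test. The log2 fold changes, knockout over control, ran from -0.19 for Tfeb to 0.32 for Asah1, a difference of at most 1.25-fold. Their median was 0.03, against -0.01 over all genes tested. In edgeR's quasi-likelihood test, with p-values adjusted over all genes by the Benjamini-Hochberg method, 12 of 11024 genes passed (0.109%), all adjusted p-values of members were 1.00, and 0 members had an unadjusted p under 0.05, against 2.82% of all genes. DESeq2 and limma-voom passed 0 members too. The SE of a member's log2 fold change was 0.15 to 0.18, except for the scarce Ctse (0.63).

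Among the BMDM values with the smallest p, acid ceramidase (Asah1), which splits ceramide, had 441 and 288 CPM in knockouts, against 276 and 308 CPM in controls (log2 0.32, SE 0.17, adjusted p = 1.00, edgeR). Only knockout 1 was above both controls, and the groups overlapped. Lamp2, a membrane glycoprotein needed for autophagosomes and lysosomes to fuse, had 756 and 642 CPM in knockouts, against 566 and 616 CPM in controls (log2 0.24, SE 0.16). Both knockouts were higher, with knockout 2 close to the higher control. Atp6v1a, the catalytic subunit of the pump, had 688 and 492 CPM in knockouts, against 417 and 566 CPM in controls (log2 0.26, SE 0.18), and the groups overlapped. The pump subunit Atp6v1h had 268 and 195 CPM in knockouts, against 198 and 208 CPM in controls (log2 0.19, SE 0.16). Npc1, the membrane transporter that moves cholesterol out of lysosomes, had 183 and 156 CPM in knockouts, against 115 and 181 CPM in controls (log2 0.19, SE 0.18). In Asah1, Atp6v1a, Atp6v1h and, narrowly, Npc1, knockout 1 alone stood above both controls. With CPM scaled over the BMDM libraries alone, 6 members had groups that did not overlap, 5 higher and 1 lower in knockouts. On the same scale 26.7% of all genes did not overlap.

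The transcription factors that act on lysosomal genes were not called in BMDM. Tfeb had 43.1 and 51.6 CPM in knockouts, against 57.6 and 50.3 CPM in controls (log2 -0.19, SE 0.17). Tfe3 had 183 and 208 CPM in knockouts, against 220 and 217 CPM in controls (log2 -0.16, SE 0.16). Mitf had 65.4 and 66.9 CPM in knockouts, against 64.7 and 62.5 CPM in controls (log2 0.06, SE 0.16). Tfe3 was lower in both knockouts, Mitf was slightly higher in both, and the groups of Tfeb overlapped.

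**Figure D2:**
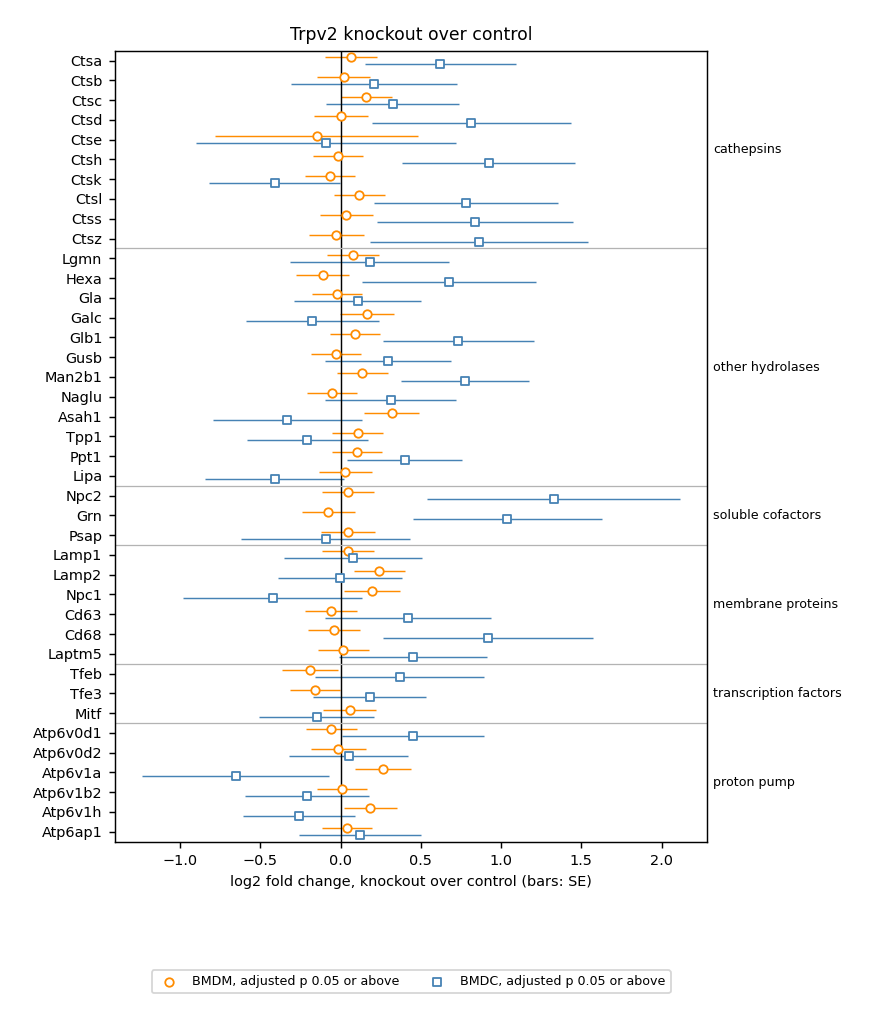
Log2 fold change, knockout over control, of the 40 genes in BMDM (circles) and BMDC (squares), with the SE as bars. Every symbol is open, since no member passed an adjusted p of 0.05; BMDM values lie between -0.19 and 0.32, and BMDC values between -0.65 and 1.33 with longer bars.

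In BMDC, 0 of 40 members passed, and 0 of 11357 genes (0.0%) did by the same test. Trpv2 itself (21.8% of the control level, adjusted p = 0.97, edgeR) and Lyz2 (0.82%, adjusted p = 0.54, edgeR) did not pass there either, so the test missed even changes of that size. DESeq2 passed 6 genes and limma-voom 0, none of them a member. At an unadjusted p under 0.05 stood 128 genes (1.13%) and 0 members. The log2 fold changes of the members ran from -0.65 for Atp6v1a to 1.33 for Npc2, with a median of 0.25 against 0.02 over all genes, and 27 of the 40 were above 0. These higher values came from 1 of the 2 knockouts. Relative to the mean of both controls, the median of the members was -0.08 in knockout 1 and 0.52 in knockout 2, on opposite sides of the controls for 21 of the 40. In knockout 2, 11 members were more than 2-fold above the controls and 2 more than 2-fold below, while in knockout 1 there were 0 such members. Without knockout 2 the median was -0.06, 16 members were above 0, and again 0 members passed, with 0.0% of all genes called and 1 member, Ctsk, at an unadjusted p under 0.05 where 2.38% of all genes stood. Without knockout 1, when knockout 2 alone was set against the controls, 17 members passed (13 higher, 4 lower), among 3215 genes called (27.5%). With 1 knockout library in each of these fits, its spread was taken to be that of the 2 controls. The biological coefficient of variation, edgeR's measure of the spread between libraries of a group, was 0.134 in BMDM and 0.406 in BMDC.

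The higher levels in BMDC knockout 2 were uneven over the roles. The 10 cathepsins had a median of 1.17 (log2 above the control mean) in knockout 2 and -0.08 in knockout 1. For the 12 other hydrolases these medians were 0.50 and 0.03, for the 6 membrane proteins 0.55 and -0.09, and for the 3 soluble cofactors 1.61 and -0.36. The 6 pump genes had medians of -0.09 in knockout 2 and -0.08 in knockout 1, but 13 further pump subunits outside the 40 had medians of 0.36 and -0.16. One of these, Tcirg1, had 783 and 1936 CPM in knockouts, against 767 and 634 CPM in controls. The medians by knockout describe single libraries, and no test was made of them. In the knockout comparison with the length trend of each library removed, the median log2 fold change of the cathepsins was 0.41, against 0.70 before, and that of the other hydrolases 0.11, against 0.24 before. For Ctss it was 0.34, against 0.84 before, and for Cd68 0.35, against 0.92. Other medians rose, from 0.25 to 0.32 for the membrane proteins and from 0.18 to 0.49 for the transcription factors. That of the pump genes went from -0.08 to -0.03 and that of the soluble cofactors from 1.04 to 0.96. Over all 40 members the median went from 0.25 to 0.30.

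Within the cathepsins, knockout 2 was the highest BMDC library for all but Ctse and Ctsk. Ctsh, an aminopeptidase, had 345 and 923 CPM in knockouts, against 324 and 344 CPM in controls (log2 0.92, SE 0.54, adjusted p = 0.97, edgeR). Knockout 1 lay at the level of the controls and knockout 2 more than 2-fold above them. Ctsd had 4239 and 12510 CPM in knockouts, against 4365 and 5140 CPM in controls, and Ctss had 3367 and 9918 CPM, against 3730 and 3671 CPM in controls. In both genes knockout 1 was below each control and knockout 2 far above. Ctsk, the collagen-degrading protease best known from osteoclasts, behaved differently, with 59.6 and 109 CPM in knockouts, against 118 and 107 CPM in controls. There knockout 1 was low and knockout 2 lay within the range of the controls (log2 -0.41, SE 0.41), and without knockout 2 the value was -0.89 (SE 0.19, adjusted p = 1.00, edgeR).

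Among the other BMDC genes with the smallest p, Man2b1, the lysosomal alpha-mannosidase, was not high in knockout 2 alone. It had 604 and 846 CPM in knockouts, against 402 and 447 CPM in controls (log2 0.78, SE 0.40, adjusted p = 0.97, edgeR). It was higher in both knockouts, and without knockout 2 its log2 fold change was 0.53 (SE 0.23). Grn, the precursor of the granulins, had 1660 and 4746 CPM in knockouts, against 1556 and 1552 CPM in controls (log2 1.04, SE 0.59). Knockout 1 was just above the controls, and the value without knockout 2 was 0.11. Npc2, the soluble protein that hands cholesterol to NPC1, had 1169 and 6395 CPM in knockouts, against 1575 and 1422 CPM in controls (log2 1.33, SE 0.79). Here the knockouts lay on either side of the controls, and without knockout 2 the value was -0.34. Glb1, the lysosomal beta-galactosidase, had 83.3 and 187 CPM in knockouts, against 86.0 and 76.4 CPM in controls (log2 0.73, SE 0.47), and 0.06 without knockout 2. The scavenger receptor family member Cd68 had 1054 and 3846 CPM in knockouts, against 1363 and 1216 CPM in controls (log2 0.92, SE 0.66), and -0.27 without knockout 2. Of these 6 genes, only Man2b1 kept a log2 fold change above 0.5 once that library was left out. With CPM scaled over the BMDC libraries alone, the groups of 9 members did not overlap, 7 higher and 2 lower in knockouts. On the same scale 25.2% of all genes did not overlap. It differs from that of the CPM printed here, on which fewer members were without overlap.

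In BMDC knockout 2, 12 of the 40 members lay below the control mean, and 2 of them, Atp6v1a and Npc1, by more than 2-fold. Asah1 and Galc followed, with log2 deviations of -0.90 and -0.67 there. Atp6v1a had 733 and 252 CPM in BMDC knockouts, against 729 and 837 CPM in controls, and Npc1 had 371 and 134 CPM, against 329 and 355 CPM in controls. In both, knockout 1 lay within or near the range of the controls and knockout 2 more than 2-fold below. The partner proteins NPC1 and NPC2, which act in sequence on cholesterol, and the pump subunits Atp6v0d1 (270 and 510 CPM in knockouts, against 274 and 297 CPM in controls) and Atp6v1a thus differed in opposite directions in the same library. The transcription factors differed less: Tfeb had 27.8 and 65.8 CPM in knockouts, against 26.0 and 46.5 CPM in controls, and Tfe3 had 115 and 141 CPM, against 105 and 121 CPM in controls. Mitf had 47.2 and 56.3 CPM in knockouts, against 47.3 and 67.9 CPM in controls. In Tfeb and Tfe3 knockout 2 was the highest of the 4 libraries, and none of the 3 genes was called.

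**Figure D3:**
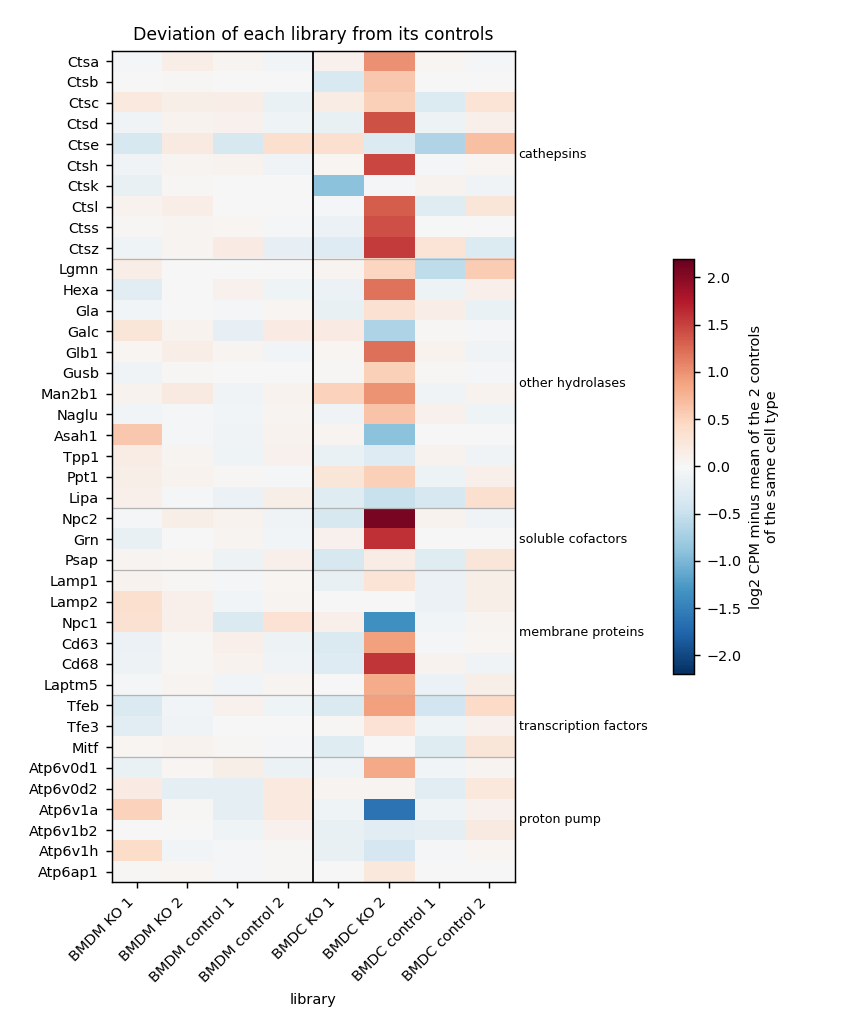
Deviation of each library from the mean log2 CPM of the 2 controls of its cell type, for the 40 genes by role (red above, blue below; BMDM left, BMDC right). BMDC knockout 2 holds nearly all of the strong colours, from 2.10 for Npc2 to -1.63 for Atp6v1a, and knockout 1 of the same group runs from -0.90 to 0.51.

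Other measures of BMDC knockout 2 moved with these values. The 15 interferon-stimulated genes summed to 233 CPM in BMDC knockout 1 and 6719 CPM in knockout 2, against 416 to 641 CPM in BMDC controls. Summed osteoclast markers, carried mostly by Mmp9, were 399 to 1036 CPM in BMDC knockouts, against 893 to 1096 CPM in controls, with the low value in knockout 2. The 7 B and plasma cell markers summed to 4.22 CPM in knockout 1 and 24.9 CPM in knockout 2, against 1.30 to 4.52 CPM in BMDC controls. The 11 markers of mast cells, basophils and eosinophils summed to 123 CPM in knockout 1 and 51.5 CPM in knockout 2, against 104 to 200.5 CPM in controls. Kit made up most of this sum outside knockout 2, with 111 CPM in knockout 1 and 96.8 and 173 CPM in controls. In knockout 2 Kit had 18.5 CPM, whereas Hdc, Mcpt8 and Ms4a2 of the same list were highest there. Gene length moved with the members as well: across the 40 genes, the deviation of knockout 2 and the log2 gene length had a Pearson correlation of -0.44 and a Spearman correlation of -0.40, over genes that share that library and are not independent. In BMDC knockout 1 these correlations were 0.34 and 0.21. A link of similar strength was seen in BMDM knockout 1, at 0.41 and 0.43, and a weaker one in BMDM knockout 2, at 0.13 and 0.15. The BMDM controls had Pearson correlations of -0.38 and 0.38, opposite in sign because each deviation is taken from their mean. The 20 shortest members had a median of 0.58 in knockout 2, with 17 above the control mean, and the 20 longest had 0.42, with 11 above. When the length trend of each library was removed, the median knockout effect of the members in BMDC was 0.30, against 0.25 before, and 0 passed. What part interferon genes, length, the other marker genes or the makeup of the culture had in these values was not tested.

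**Figure D4:**
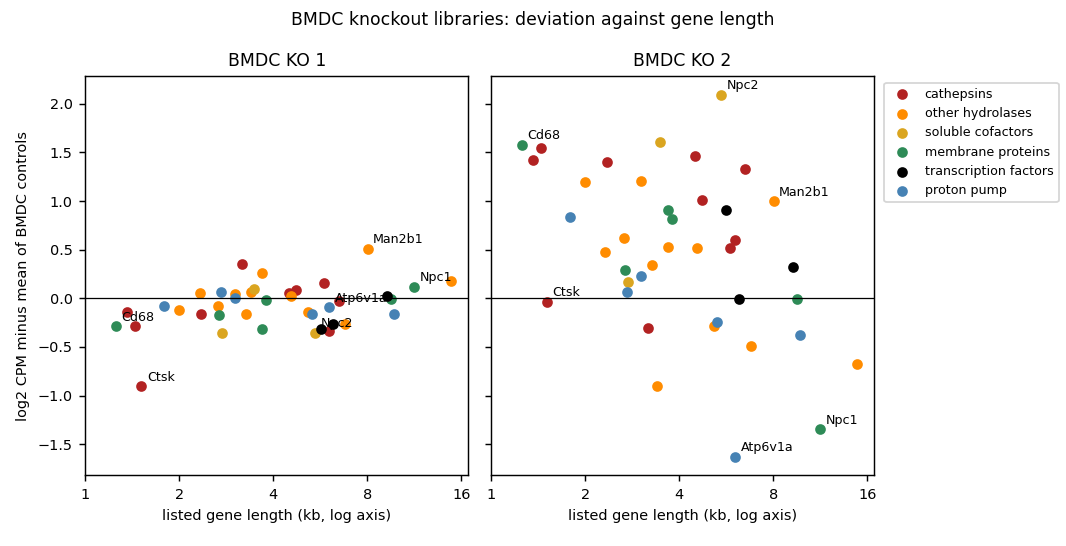
Deviation of the 40 genes from the mean of the BMDC controls (log2 CPM) against listed gene length in kb (log axis), in BMDC knockout 1 (left) and knockout 2 (right), coloured by role. In knockout 2 short genes such as Cd68 lie high and Npc1 lies low (Pearson -0.44), but the longer genes Npc2, Man2b1 and Atp6v1a lie far apart; in knockout 1 the points run from -0.90 for Ctsk to 0.51 for Man2b1.

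The knockout effects in the 2 cell types were set against each other directly. By edgeR's interaction test in a joint fit of all 8 libraries, 0 of 40 members and 0 of 11671 genes (0.0%) passed, and 0 members had an unadjusted p under 0.05, against 1.93% of all genes. The smallest p-values were those of Man2b1 (BMDM effect minus BMDC effect -0.64, SE 0.35), Grn (-1.12, SE 0.63) and Ctsh (-0.94, SE 0.59), each with an adjusted p of 0.84. The median over the members was -0.24, and 0.16 without BMDC knockout 2. Leaving out BMDC knockout 1 gave 18 members, 4 higher and 14 lower, with 31.2% of all genes called.

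BMDM and BMDC differed in their lysosomal genes more than knockout and control did, and the same held over all genes. In knockouts, Ctsk, the acid lipase gene Lipa and Atp6v1h were higher in BMDM by the joint fit of all 8 libraries, and 0 members were lower, with 8.02% of all genes called (3.38% higher, 4.64% lower). In controls, Ctsk, Gusb and Tfe3 were higher and 0 were lower. That is 7.5% of the members, against 9.75% of all genes (4.67% higher, 5.08% lower). In both genotypes the share of members called lay near that of all genes, so these counts do not set the members apart. The joint fit takes its spread from all libraries, so BMDC knockout 2 also weighs on the comparison of controls. Without it, 20 of 40 members differed between control cultures, 12 higher and 8 lower in BMDM, where 40.8% of all genes were called (19.3% higher, 21.5% lower). A fit of the 4 control libraries alone called 14 (35.0% of the members), 9 higher and 5 lower, all among those 20. Of all genes that fit called 38.3% (17.7% higher, 20.6% lower).

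**Figure D5:**
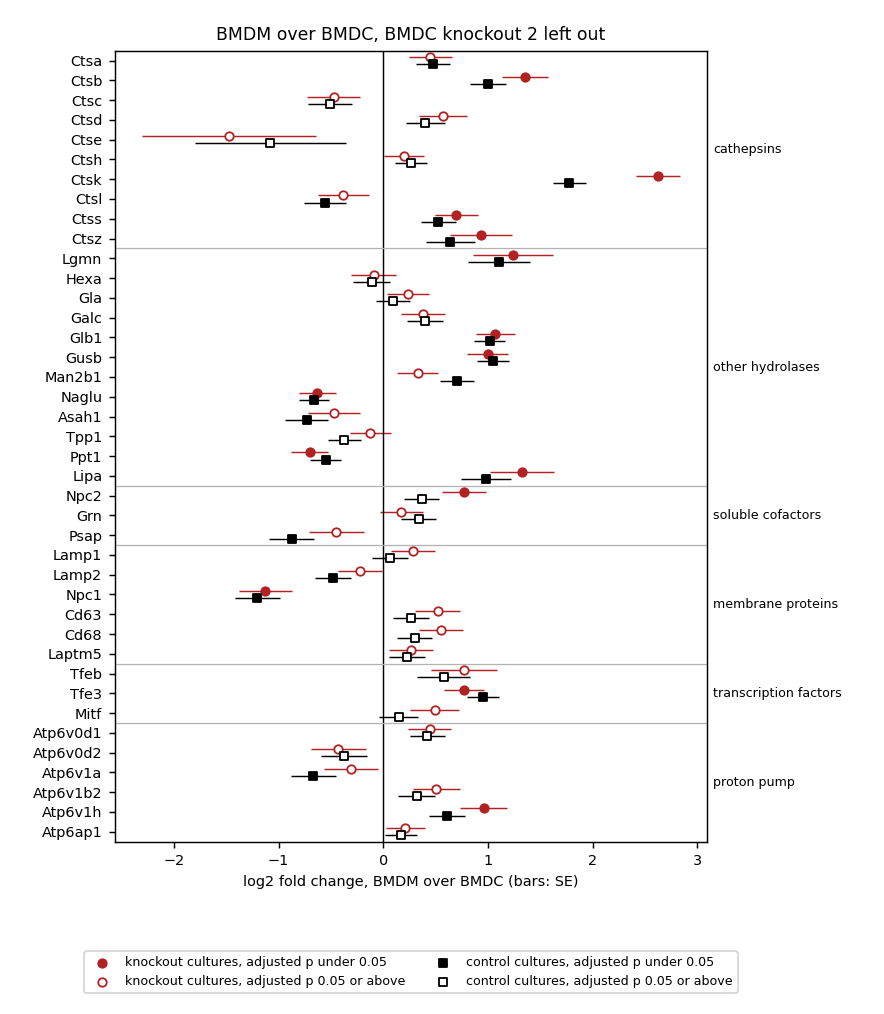
Log2 fold change, BMDM over BMDC, of the 40 genes in knockout cultures (circles) and control cultures (squares), with the SE as bars, in the joint fit without BMDC knockout 2; filled symbols have an adjusted p under 0.05. Ctsk is the farthest to the right in both genotypes, at 2.62 in knockouts and 1.78 in controls, and Npc1 is the lowest filled gene, at -1.13 and -1.20.

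Ctsk had 343 and 390 CPM in BMDM knockouts, against 59.6 and 109 CPM in BMDC knockouts, and 384 and 383 CPM in BMDM controls, against 118 and 107 CPM in BMDC controls. All 4 BMDM libraries were above all 4 BMDC libraries. In knockouts it was 4.34-fold higher in BMDM (log2 2.12, SE 0.31, adjusted p = 0.0086, edgeR). In controls it was 3.42-fold higher (log2 1.77, SE 0.31, adjusted p = 0.014, edgeR). The call in knockouts was lost without either BMDM knockout (adjusted p = 0.064 and 0.083, edgeR) and when the 4 knockout libraries were fitted alone (adjusted p = 0.075, edgeR), a fit that called 0 members and 2.48% of all genes. The call in controls was lost when any 1 of the 4 control libraries was left out (adjusted p = 0.091 to 0.0996, edgeR).

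Hydrolases of glycans and lipids followed among the higher genes. Beta-glucuronidase (Gusb), which degrades glycosaminoglycans, had 852 and 911 CPM in BMDM knockouts, against 443 and 625 CPM in BMDC knockouts, and 895 and 904 CPM in BMDM controls, against 443 and 428 CPM in BMDC controls. All BMDM libraries were above all BMDC libraries (controls: log2 1.05, SE 0.25, adjusted p = 0.042, edgeR). Lipa, the acid lipase that frees cholesterol from its esters, had 1538 and 1390 CPM in BMDM knockouts, against 587 and 501 CPM in BMDC knockouts (log2 1.43, SE 0.30, adjusted p = 0.030, edgeR). In controls it had 1305 and 1564 CPM in BMDM, against 551 and 904 CPM in BMDC (log2 0.98, SE 0.30, adjusted p = 0.084, edgeR). The groups did not overlap in either genotype. Without BMDC knockout 2, Gusb and Lipa passed in both genotypes, and so did Glb1 and the asparagine-specific protease legumain (Lgmn). Lgmn had 1155 and 1178 CPM in BMDM controls, against 343 and 744 CPM in BMDC controls, a wide gap between the BMDC libraries (log2 1.10, SE 0.30, adjusted p = 0.016, edgeR, without BMDC knockout 2). Glb1 had 171 and 158 CPM in BMDM controls, against 86.0 and 76.4 CPM in BMDC controls (log2 1.02, SE 0.15, in the same fit). Man2b1 stood at a log2 fold change of 0.33 (SE 0.20) in knockouts, and at 0.70 (SE 0.16) in controls, where it passed; the difference between them did not pass (-0.37, SE 0.25, adjusted p = 1.00, edgeR).

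Among the cathepsins, Ctsb, an abundant endo- and exopeptidase, had 16160 and 16390 CPM in BMDM controls, against 8135 and 8147 CPM in BMDC controls. The libraries of each kind lay close together (log2 1.00, SE 0.17, adjusted p = 0.0018, edgeR, without BMDC knockout 2; adjusted p = 0.12 with it). Ctsa, Ctss and Ctsz were higher in BMDM controls in the same fit, by log2 fold changes of 0.47, 0.53 and 0.64. Ctsl, the protease cathepsin L, was lower, with 922 and 901 CPM in BMDM controls, against 1090 and 1594 CPM in BMDC controls (log2 -0.56, SE 0.20, adjusted p = 0.049, edgeR). Ctsc, which activates granule serine proteases, and Ctse did not pass in either genotype.

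Npc1 and Psap, both of lipid handling, were lower in BMDM controls once BMDC knockout 2 was left out. The log2 fold change of Npc1 in knockouts was -1.13 (SE 0.25, adjusted p = 0.0094, edgeR, without BMDC knockout 2). It had 115 and 181 CPM in BMDM controls, against 329 and 355 CPM in BMDC controls (log2 -1.20, SE 0.22, adjusted p = 0.0022, edgeR, in the same fit). Psap had 11830 and 13940 CPM in BMDM controls, against 19440 and 27930 CPM in BMDC controls (log2 -0.88, SE 0.22, adjusted p = 0.011, edgeR). In both genes all BMDM controls were below all BMDC controls, and neither passed with BMDC knockout 2 in the fit (adjusted p = 0.14 each, edgeR). When the 4 control libraries were fitted alone, Npc1 passed (adjusted p = 0.010, edgeR), but Psap (0.059), Ctsa (0.082), Lamp2 (0.085), Ctss (0.089), Ctsl (0.11) and Ctsz (0.11) did not. The heparan sulphate enzyme Naglu and the thioesterase Ppt1, whose loss causes a childhood neuronal storage disease in people, were lower in both genotypes, at -0.63 and -0.70 in knockouts and -0.66 and -0.55 in controls. Asah1 (-0.73), Atp6v1a (-0.67) and Lamp2 (-0.48) passed in controls and not in knockouts. For these 3 genes the difference between genotypes did not pass, at 0.26 for Asah1, 0.36 for Atp6v1a and 0.26 for Lamp2 (adjusted p = 1.00 each, edgeR, BMDM minus BMDC knockout effect).

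The proton pump was mixed. Atp6v1h, a regulatory subunit of the cytosolic sector, had 268 and 195 CPM in BMDM knockouts, against 119 and 103 CPM in BMDC knockouts (log2 1.06, SE 0.24, adjusted p = 0.035, edgeR). In controls it had 198 and 208 CPM in BMDM, against 130 and 137 CPM in BMDC (log2 0.61, SE 0.23, adjusted p = 0.14, edgeR; adjusted p = 0.021 without BMDC knockout 2). The groups did not overlap in either genotype. Atp6v1a went the other way in controls, as given above. Atp6v0d1, Atp6v1b2 and the accessory subunit Atp6ap1 had values of 0.42, 0.32 and 0.17 in controls without BMDC knockout 2, and Atp6v0d2, the form of the d subunit known from osteoclasts, had -0.38; none of the 4 passed.

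Of the transcription factors, Tfe3 had 183 and 208 CPM in BMDM knockouts, against 115 and 141 CPM in BMDC knockouts (log2 0.61, SE 0.22, adjusted p = 0.15, edgeR; adjusted p = 0.015 without BMDC knockout 2). It was higher in BMDM controls, with 220 and 217 CPM, against 105 and 121 CPM in BMDC controls (log2 0.95, SE 0.22, adjusted p = 0.037, edgeR). All BMDM libraries were above all BMDC libraries. In controls without BMDC knockout 2, the log2 fold changes were 0.57 for Tfeb (SE 0.25) and 0.14 for Mitf (SE 0.19), and neither passed. The calls of Gusb and Tfe3 in controls were lost without any 1 of the 4 control libraries or of the 2 BMDM knockouts. In knockouts, the call of Lipa was lost without any 1 of the 4 BMDM libraries, and that of Atp6v1h without any 1 of those or of the 2 BMDC controls. A replicate block ended the calls of Gusb and Tfe3 in controls (adjusted p = 0.064 and 0.055, edgeR) and of Lipa and Atp6v1h in knockouts (adjusted p = 0.053 and 0.060, edgeR). On log2(FPKM + 1), limma's test did not call Tfe3 in controls (adjusted p = 0.053) or Atp6v1h in knockouts (adjusted p = 0.071).

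The cell type difference was alike in direction in cultures of both genotypes once BMDC knockout 2 was left out. All 40 members had the same sign in knockouts as in controls, which share no library, where 85.9% of 11933 genes did. In knockouts 14 members passed, 11 higher and 3 lower, with 30.5% of all genes called (15.0% higher, 15.5% lower). The alike direction held with knockout 1 as the BMDC knockout library. With knockout 2 in its place 19 of 40 members had the same sign, and 19 members passed in knockouts (5 higher, 14 lower, median -0.33 over the 40), with 32.3% of all genes called. In either case the lone BMDC knockout library was taken to vary like the other groups. Of the members higher in BMDM without BMDC knockout 2, 10 were on both lists, out of 11 in knockouts and 12 in controls. Of those lower in the same fit, 3 (Naglu, Npc1 and Ppt1) were on both, out of 3 in knockouts and 8 in controls. The share of all genes on both lists was not counted, and both contrasts come from the same fit. These shared calls are therefore not read as particular to the members. With BMDC knockout 2 in the knockout group, Ctss, Ctsz and Npc2 had log2 fold changes of -0.29, -0.26 and -0.93, against 0.70, 0.93 and 0.77 without it. BMDM and BMDC did not overlap for 18 members in knockouts (10 higher, 8 lower), where 44.8% of all genes did not overlap. In controls they did not overlap for 34 members (24 higher, 10 lower), against 74.0% of all genes.

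Of 99 other lysosomal genes looked up, 95 were in both tables and 90 were tested. In the knockout comparisons 0 of the 90 passed in either cell type, and 0 had an unadjusted p under 0.05. Of all genes, 0.109% passed in BMDM and 0.0% in BMDC, and 2.82% and 1.13% had an unadjusted p under 0.05. The smallest p in BMDC was that of Cst3, the gene of the cathepsin inhibitor cystatin C, with 876 and 3043 CPM in knockouts, against 815 and 761 CPM in controls (log2 1.31, SE 0.64, adjusted p = 0.97, edgeR). Here too knockout 2 alone was high, and without it the value was 0.17 (SE 0.25). Tpcn2, a cation channel of endosomes and lysosomes, had 56.0 and 82.0 CPM in BMDC knockouts, against 47.6 and 33.2 CPM in controls (log2 0.77). In BMDM the smallest p were those of the lipid amidase Naaa (log2 0.29) and of Gga1, an adaptor in enzyme sorting (log2 -0.23).

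Between the control cultures, 1 of these 90 genes was higher and 3 were lower in BMDM with all libraries in the fit, which is 4.44% of the 90, against 9.75% of all genes (4.67% higher, 5.08% lower). Ctsf, the gene of the cysteine protease cathepsin F, had 14.8 and 14.1 CPM in BMDM controls, against 1.84 and 1.80 CPM in BMDC controls (log2 2.98, SE 0.31, adjusted p = 0.0022, edgeR). Naaa had 17.4 and 23.4 CPM in BMDM controls, against 58.2 and 100.4 CPM in BMDC controls (log2 -1.96, SE 0.33, adjusted p = 0.012, edgeR). Both passed in knockouts as well, at 2.17 for Ctsf and -2.02 for Naaa. The sulfatase gene Arsb (-1.02) and Fnip2 (-2.40), whose product acts with folliculin in nutrient signalling upstream of TFEB, were the other lower genes. Without BMDC knockout 2, 17 were higher and 18 lower, which is 38.9% of the 90, against 40.8% of all genes. Among the 15 genes of TFEB regulation 4 were lower and 0 higher there, among them Fnip2, Fnip1 (-1.87) and Tfec (-1.11), a relative of TFEB; of all genes 21.5% were lower and 19.3% higher. Among 13 further pump genes, Tcirg1 (0.60), the a3 subunit, and Atp6v0b (0.72) were higher and 1, Atp6v0a2 (-0.52), was lower. The sorting receptors Igf2r (-0.90), which carries newly made hydrolases to lysosomes, and Sort1 (-0.65) were lower in BMDM controls.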

How the data were processed

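Per the labels' protocols, stranded mRNA libraries (TruSeq) were sequenced on an Illumina NovaSeq, trimmed with cutadapt, aligned to GRCm38 and counted per gene with HTSeq. The submitters' processing notes name both GRCm38 and GRCm39. Of 13664 genes matched to GENCODE M21 (GRCm38), 2.071% have the same start, so the build of the deposited positions is not settled and none is printed here. The aligner, tool versions and strand setting are not given in the sources used here.

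Per the file headers, the authors deposited raw read counts per gene in 1 table per cell type, with 14755 genes for BMDC and 14311 for BMDM. FPKM values were deposited by the authors and equal those counts scaled by listed gene length and library total. The authors' deposited table also gives a mean signal, the ratio (fold) of knockout over control, that fold as log2, and a p-value. In the authors' deposited table, all adjusted p-values of the members are 1.0. 0 columns were left unmapped, and 0 pairs of libraries held identical values.

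Counts were tested with edgeR 4.0.16 (quasi-likelihood, TMM, filterByExpr with minimum count 10, Benjamini-Hochberg over all genes tested, threshold 0.05) in R 4.3.3. Knockout and control were compared within each table, and a joint fit of 8 libraries compared cell types and knockout effects. The main edgeR test of each comparison was also run on simulated counts with known changes. Those counts had no length trend and no library apart from its group. The alternatives were not run on them. Alternatives were DESeq2 1.42.0 and its size factors, limma 3.58.1 (voom, and log2(FPKM + 1) or log2(FPKM + 0.1)), other filters, a minimum log2 fold change of 1, a replicate block, removal of the gene-length trend, other sets of libraries in the fit, and leaving out each library. A member is called higher or lower only past the threshold. The members and gene lists were chosen with earlier results of these data known. In full are given Tfeb, Tfe3 and Mitf, in each knockout comparison the 6 members with the smallest p, in the interaction the 3 smallest, in the cell type comparison up to 8 called members a direction, and the called other lysosomal genes with the largest change (up to 3 a list and direction). Other members were chosen after their values were seen.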

Additional observations from a re-analysis of the deposited data

How the results depend on the processing

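In the knockout comparison of BMDM, 0 members passed under every alternative run, and 11 to 34 genes passed with 1 library left out. In BMDC, 0 members passed under every alternative except without knockout 1; leaving out 1 library gave 0 to 17 members and 0 to 3215 genes, and for the difference of knockout effects 0 to 18 members and 0 to 3733 genes. For BMDM over BMDC these ranges were 0 to 19 members and 130 to 3866 genes in knockouts, and 0 to 20 members and 218 to 4877 genes in controls. Besides BMDC knockout 2, other libraries decided such counts. Without BMDC knockout 1, 19 members passed in knockouts (5 higher, 14 lower; 32.3% of all genes called) and 18 in controls (12 higher, 6 lower; 40.8%). In knockouts, 0 passed without either BMDM knockout and 1 without either BMDM control. In controls, 0 or 1 passed without any single control library or BMDM knockout.

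DESeq2 gave 6 genes in BMDC, 7 members and 1691 genes for BMDM over BMDC in knockouts, and 8 members and 2212 genes in controls. In BMDC, no filter on low counts and the joint fit each gave 1 gene. In BMDM, the joint fit gave 2 genes. With the length trend removed, 6 members passed in knockouts and 7 in controls, and limma on log2(FPKM + 1) or log2(FPKM + 0.1) gave 5 members in knockouts. The 4 libraries of a contrast fitted alone gave 0 members and 281 genes in knockouts, and 14 members and 4311 genes in controls. Signs were followed where the value passed in the main test or under the alternative: without BMDC knockout 2, Ctss (0.70), Ctsz (0.93) and Npc2 (0.77) turned positive in BMDM over BMDC knockouts, where they were -0.84, -0.88 and -1.66 without BMDC knockout 1. On the FPKM scales the all-gene median moved to 0.13 and 0.21 for the difference of knockout effects (members -0.01 and -0.0021), to -0.12 and -0.19 for BMDM over BMDC in controls (members 0.09 and 0.09), and to -0.12 for log2(FPKM + 0.1) in BMDC (members 0.13). The cause of these changes was not tested.

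Whether replicate numbers pair the libraries is not settled, with 2 libraries a group. Deviations of same-numbered libraries correlated at -0.24 in BMDM and -0.0016 in BMDC, and at -0.38 to 0.34 between groups in the joint fit. With a replicate block, 1 member passed in knockouts and 1 in controls for BMDM over BMDC, 11 genes passed in BMDM and 2 in BMDC, and 0 members in the knockout comparisons. With crossed numbers in BMDM, an alternative chosen after seeing the data, 29 genes passed. At 2 libraries a group, and with the wide spread in BMDC, values of the size seen there did not pass. By depth, the limit is on Ctse, at 0.552 to 2.92 CPM over the 8 libraries.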
